A study of Heterocephalus glaber and Mus musculus with 6 samples.

Results

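Heat shock and J-domain chaperone genes were followed in epidermal keratinocytes of the mouse. They were chosen by gene symbol alone. No measured value enters the rule, though earlier results of these data were known when the genes were chosen. The rule takes the GENCODE vM21 symbols of the Dnaja, Dnajb and Dnajc families, the heat shock factors Hsf1 to Hsf5, and Bag1 to Bag6. It also takes the Hsp90, Hspa, Hspb, Hspd, Hspe and Hsph families with the Hsp-binding proteins Hspbp1 and Hspbap1. There are 85 such genes in the annotation, of which 28 had a row under their own Ensembl identifier in the mouse count tables and 23 were measured, meaning a mean count of at least 10 over the 3 mouse libraries. They are 23 of 9965 measured mouse genes with a symbol of their own.

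The study sorted keratinocytes for CD49f, integrin alpha-6, from the skin epidermis of 7 to 8 week-old FVB mice, an inbred strain, and of 6 to 7 month-old naked mole-rats, with 3 libraries per species. No treatment or genetic change is named for either species, and in both the skin was split with dispase and the epidermis digested to single cells before sorting, so each library is a bulk sample of sorted cells. The naked mole-rat tables carry identifiers that the reference tables used here do not pair with names, so these genes are described in the mouse only, with no comparison between species or conditions and no test. The labels do not say whether the mouse libraries came from separate animals, so the spread between them may be technical in part. Library 1 alone held counts of a Y-linked gene, so at least part of its cells came from other animals than those of libraries 2 and 3.

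Heat shock proteins bind unfolded or partly folded proteins and help them to fold, to cross membranes or to be degraded. Hsp70 proteins (Hspa genes) do this in a cycle of ATP hydrolysis: J-domain proteins (Dnaj genes) bring substrates and stimulate the ATPase, and nucleotide exchange factors such as Bag proteins, Hspbp1 and the Hsp110 relatives release the substrate again. Hsp90 proteins act on kinases and receptors, small heat shock proteins (Hspb genes) hold unfolding proteins, and heat shock factors switch the inducible genes on. In skin, keratinocytes meet heat, ultraviolet light and drying, and differentiating cells make large amounts of small heat shock protein.

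The J domain works through a short loop whose histidine, proline and aspartate residues contact Hsp70. Each codon stretch below shows this signature in the longest annotated coding sequence of a measured gene, with the 3 codons in capitals and 15 bases on each side, from the GENCODE vM21 transcripts (GRCm38). They are shown because the place of the signature in the coding sequence differs among these genes. Dnaj genes are named for the J domain, so the presence of the signature in them follows from the choice by name.

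Dnajb12: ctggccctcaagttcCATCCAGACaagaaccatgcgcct
Dnajb9: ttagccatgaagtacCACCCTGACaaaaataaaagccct
Dnajc17: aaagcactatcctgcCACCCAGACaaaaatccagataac
Dnajc30: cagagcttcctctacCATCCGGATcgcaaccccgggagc
Dnajc27: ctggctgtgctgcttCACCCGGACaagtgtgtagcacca
Dnajc6: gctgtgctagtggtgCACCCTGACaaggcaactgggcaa

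The Dnajb12 stretch lies at chr10:59890925-59890963 on the plus strand, that of Dnajb9 at chr12:44208121-44208159 on the minus strand and that of Dnajc17 at chr2:119186356-119186394 on the minus strand. The Dnajc30 stretch lies at chr5:135064443-135064481 and the Dnajc27 stretch at chr12:4106830-4106868, both on the plus strand. All 5 fall within 1 coding exon, while the Dnajc6 stretch spans 2 coding exons between 101639416 and 101640483 of chromosome 4, plus strand. In-frame histidine (CAC or CAT), proline (CCN) and aspartate (GAC or GAT) codons, read on the coding strand, stood in 44 of the 45 annotated J-domain genes, exactly once in each. Over all protein-coding genes with a whole coding sequence, 1177 of 21630 (5.44%) held these codons. The exception was Dnajb13, a gene of sperm flagella, which had none in its longest coding sequence. A lysine codon (AAA or AAG) came next in 34 of the 44 genes, and in 83 of the 1177 genes with the codons overall. It did so in 5 of the 6 printed here, and Dnajc30 has cgc in that place.

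The place of the codons varied most among Dnajc genes. In 14 of the 16 Dnaja and Dnajb genes with the codons, these lay within the first 33.3% of the coding sequence, at 8.31% in Dnaja1 and 9.12% in Dnajb1. Dnajb12 and Dnajb14, which are anchored in the membrane of the endoplasmic reticulum, were the exceptions, at 36.5% and 35.6%. Among the 28 Dnajc genes, 19 had the codons in the same first part and 7 in the last 33.3%. The measured gene with the latest position was Dnajc6, at 96.2% of its coding length, followed by Dnajc27 at 89.4% and Dnajc15 at 81.2%. The earliest was Dnajc21, at 5.65%.

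**Figure D1:**
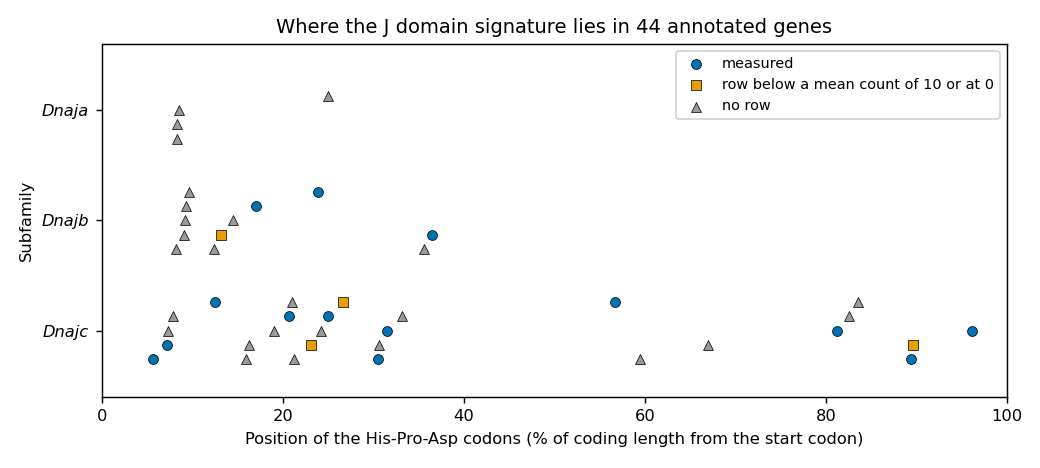
Position of the histidine, proline and aspartate codons (horizontal axis, % of the coding length from the start codon) in the 44 J-domain genes that hold them, by subfamily (vertical axis). Each point is 1 gene, spread vertically only for legibility, with its colour and shape giving its status in the mouse tables. Dnaja and Dnajb genes lie at the left, up to 36.5%, while Dnajc genes reach 96.2%.

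Most of the best known chaperones had no row of their own. The share of members with a row was 32.9% (28 of 85), against 66.5% (14605 of 21951) of all annotated protein-coding genes. None of the 4 Dnaja genes, the 3 Hsp90 genes or Hspd1, Hspe1 and Hsph1 had one. Of the 13 Hspa genes 3 had a row, of the 8 Hspb genes 2, of the 5 Hsf genes 2 and of the 6 Bag genes 1, while Dnajb genes had 4 of 13, Dnajc genes 14 of 28 and the binding proteins 2 of 2. The 57 members without a row included Hspa8, the constitutive cytosolic Hsp70, the inducible Hspa1a and Hspa1b, the endoplasmic reticulum Hsp70 gene Hspa5, mitochondrial Hspa9, the small heat shock gene Hspb1, Dnajb1 and Hsf1, the main factor of the heat shock response. These 57 were not analysed here. The mouse tables also hold 11689 assembled loci without gene names, and the Ensembl rows carry 10.6% to 11.5% of the counts of a library. A gene without a row has no value here, whether high or low. Members with a row had a median of 4 annotated transcripts and those without a row 5, beside 3 and 5 over all protein-coding genes.

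The rest of the members without a row were Bag1, Bag3, Bag4, Bag5 and Bag6, Dnaja1, Dnaja2, Dnaja3 and Dnaja4, Dnajb2, Dnajb3, Dnajb4, Dnajb6, Dnajb7, Dnajb11, Dnajb13 and Dnajb14, Dnajc1, Dnajc2, Dnajc3, Dnajc4, Dnajc5, Dnajc7, Dnajc8, Dnajc9, Dnajc10, Dnajc11, Dnajc13, Dnajc14, Dnajc25 and Dnajc28, Hsf2 and Hsf3, Hspa2, Hspa4, Hspa12a, Hspa12b and Hspa14, Hspb2, Hspb6, Hspb7, Hspb8 and Hspb9, and Hspd1, Hspe1, Hsph1, Hsp90aa1, Hsp90ab1 and Hsp90b1.

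**Figure D2:**
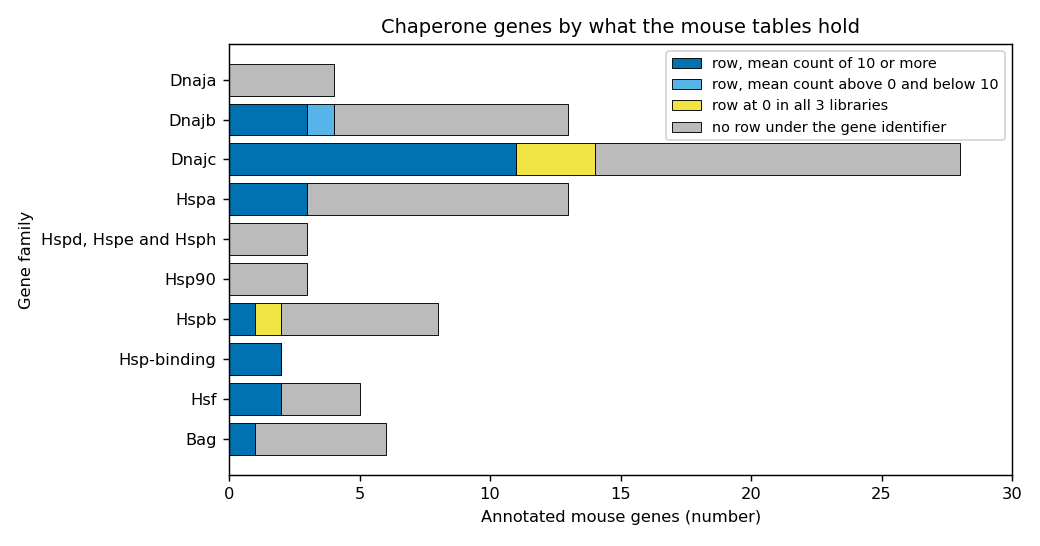
Number of annotated mouse genes in each chaperone family (bars, horizontal axis) by what the 3 mouse tables hold. Dark blue marks the 23 measured genes, light blue Dnajb8, yellow the 4 genes at 0 and grey the 57 genes without a row; Dnajc is the family with the most measured genes, 11 of 28.

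Rows at 0 in all libraries belonged to Dnajc5b and Dnajc5g, testis relatives of the cysteine string protein, to Dnajc22 and to Hspb3, a small heat shock gene of muscle. Dnajb8, a J-domain gene known from testis, had 3, 5 and 6 counts in libraries 1, 2 and 3, a mean of 4.67 that placed it just outside the threshold. Just inside were Hsf5, at a mean of 14.0 counts, and Dnajc12, at 34.0. These 5 low or silent genes show values of their own rows only, and reads assigned to assembled loci are not seen in them.

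The libraries held 52499080, 53465434 and 52970733 counts. Library 1 alone had counts of the Y-linked gene Ddx3y (3483, 0 and 0). In these data a departure of library 1 and a difference of sex cannot be told apart. Genes of mitosis were lowest in library 3 in 23 of 23 measured cases, beside 47.6% of all measured genes, with a median deviation of −1.09 there. A deviation is the log2 CPM (counts scaled to the same library total of 1e+06, with 0.5 added to each count) of a library minus the mean of the other 2. Keratin and integrin markers gave no check of cell identity, since 0 of 10 basal and 0 of 9 suprabasal markers had a row. Of other cell types, the summed CPM of the markers with a row was 1.66 to 3.20 for endothelium and 2.06 to 4.70 for leukocytes. It was 8.31 to 10.6 for melanocytes, nearly all Mitf (Tyr at 0), and 50.1 to 63.2 for fibroblasts, nearly all Col6a3 (Pdgfrb at 0). Muscle markers summed to 0.0762 to 0.43. Of 8 endothelial markers 4 were at 0, Kdr and Cdh5 among them. Flt1 had 129, 105 and 63 counts and Vwf 25, 24 and 14, both lowest in library 3, while Pecam1 had 10, 14 and 11. No leukocyte marker with a row was at 0 throughout. All 4 were highest in library 3 (Ptprc 24, 41 and 48 counts), beside 24.4% of all measured genes. All 5 Merkel cell markers were at 0.

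The 3 highest measured members were Dnajb12 and Dnajb9, J proteins of the endoplasmic reticulum, and the Hsp70 exchange factor Hspbp1. Levels between genes are compared as CPM per kilobase of annotated exon. The median over the 23 measured members was 2.10 CPM per kilobase, beside 1.30 over all 9965 measured genes, and 15 of the 23 lay above the latter. Among genes with a mean of at least 50 counts the medians did not differ, at 2.53 over 20 members and 2.53 over 6710 genes. The members spanned from 11.4 CPM per kilobase for Dnajb12 to 0.0635 for Hsf5. In the order of levels, the ranges over the 3 libraries lay apart for 10 of the 22 pairs of neighbours and overlapped for 12. Dnajb12 lay above all others, Hspbp1 and Dnajb9 overlapped each other and lay above the rest, and Dnajc21, Dnajc24, Dnajc30, Hspa4l and Dnajc16 each overlapped the next.

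**Figure D3:**
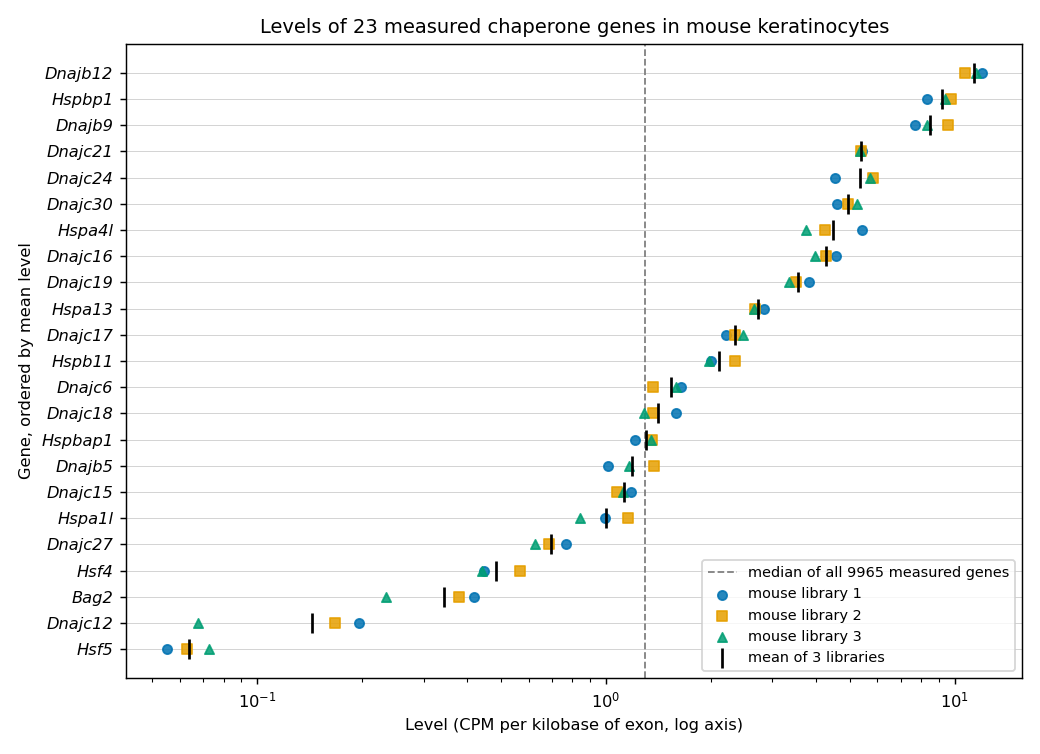
Level of each measured chaperone gene (horizontal axis, CPM per kilobase of exon on a log axis) in mouse libraries 1, 2 and 3 (points) with the mean of the 3 (bar), ordered by mean level. The dashed line is the median of all measured genes, 1.30. Dnajb12 stands at the top at 11.4 and Hsf5 at the bottom at 0.0635, and for 21 of 23 genes the highest library is under 1.5 times the lowest.

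J-domain genes of the endoplasmic reticulum included both the highest member and one below the middle of the list. Dnajb12, a membrane-anchored J protein that takes part in the degradation of misfolded membrane proteins (chr10:59879556-59899302), had 40.3, 36.2 and 38.8 CPM in libraries 1, 2 and 3, a level of 11.4 ± 0.623 CPM per kilobase (SD, n = 3). Library 1 was highest and library 2 lowest, a spread of 1.11 times, and its level stood at the 99.3rd percentile of all measured genes. Dnajb9, a partner of Hspa5 in the lumen that restrains the stress sensor Ern1 (chr12:44205559-44210326), had 19.6, 24.4 and 21.2 CPM and a level of 8.53 ± 0.945 CPM per kilobase. Library 2 was highest by 1.19 times the other libraries pooled (95% counting interval 1.11 to 1.28). Dnajc16, a membrane J protein linked to autophagosome growth, had 29.8, 27.9 and 25.9 CPM and a level of 4.28 ± 0.302 CPM per kilobase. Dnajc18, a relative of Dnajb12, had 8.743, 7.500 and 7.042 CPM and a level of 1.41 ± 0.16 CPM per kilobase. Both were highest in library 1 and lowest in library 3.

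J-domain genes of mitochondria were close between libraries. Dnajc19, a part of the motor that pulls proteins through the inner membrane, had 15.4, 14.2 and 13.5 CPM and a level of 3.57 ± 0.236 CPM per kilobase. Dnajc15, its paralog in the same membrane, had 7.68, 7.00 and 7.29 CPM and a level of 1.12 ± 0.0525 CPM per kilobase. The level of Dnajc19 was above that of Dnajc15 in each library. Dnajc30, a single-exon gene whose protein acts on respiratory complex I (chr5:135064202-135065862), had 7.66, 8.21 and 8.74 CPM and a level of 4.94 ± 0.326 CPM per kilobase. It shares 26.2% of its exonic bases with Bud23 on the other strand, which had 734, 816 and 756 counts, and whether the counting used strand is not given, so its level is uncertain. Dnajc19 shares 4.42% of its exonic bases with Fxr1 on the other strand.

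Among J-domain genes of the cytosol and nucleus, Dnajc21 differed least between libraries and Dnajc12 most. Dnajc21, which acts in the making of the large ribosomal subunit, had 25.9, 25.7 and 25.7 CPM and a level of 5.39 ± 0.0242 CPM per kilobase. Its highest and lowest libraries were 1.01 times apart, and only 0.13% of all measured genes had as small an SD of log2 CPM (0.00648). That spread is smaller than the counting error: the counting interval of library 1 ran from 0.944 to 1.08 times the others. With TMM factors its libraries were 1.05 times apart with an SD of 0.036, a spread as small in 3.52% of all genes, and it still differed least among the 23 members. Dnajc24, an enzyme of the diphthamide pathway that modifies elongation factor 2, had 6.23, 7.99 and 7.83 CPM and a level of 5.37 ± 0.711 CPM per kilobase. It was lowest in library 1, at 0.787 times the others (counting interval 0.691 to 0.896). Dnajc17, a nuclear protein linked to splicing, had 2.90, 3.07 and 3.23 CPM and a level of 2.34 ± 0.127 CPM per kilobase, and its counting intervals spanned 1 in each library. Part of its sequence, 13.9% of its 50-base words, recurs in Gm6257, so reads may be split. It also shares 8.26% of its exonic bases with Zfyve19 on the other strand, which had 667, 734 and 701 counts beside 152, 164 and 171 for Dnajc17.

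Dnajc6 encodes auxilin, which strips clathrin from vesicles and is best known from neurons. It had 9.71, 8.06 and 9.40 CPM and a level of 1.53 ± 0.149 CPM per kilobase, lowest in library 2. Dnajc27, a small GTPase with a J domain at its end, had 3.90, 3.50 and 3.19 CPM and a level of 0.694 ± 0.0704 CPM per kilobase. Dnajb5, a cytosolic J protein related to Dnajb1, had 6.02, 8.15 and 6.93 CPM and a level of 1.18 ± 0.181 CPM per kilobase. Library 2 was highest for Dnajb5, at 1.26 times the others (1.11 to 1.42), and library 1 lowest, at 0.798 times (0.698 to 0.91).

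Only 3 of the 13 Hspa genes had a row, and among these Hspa4l had the largest number of counts (chr3:40744495-40796103). Hspa4l is an Hsp110 relative that acts as a nucleotide exchange factor. It had 3368, 2674 and 2347 counts, or 64.2, 50.01 and 44.3 CPM, and a level of 4.48 ± 0.866 CPM per kilobase. Library 1 stood above both others, at 1.36 times them (1.30 to 1.42), and library 3 below, at 0.777 times (0.741 to 0.815). Summed over all members with a row, the libraries had 304.5, 292.2 and 280.02 CPM. Without Hspa4l the sums were 240.4, 242.2 and 235.7 CPM.

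Hspa13, an Hsp70 of the endoplasmic reticulum without the usual substrate-binding domain, had 19.5, 18.2 and 18.1 CPM and a level of 2.72 ± 0.108 CPM per kilobase. Hspa1l, a testis-enriched relative of Hspa1a (chr17:34972703-34979285), had 2.46, 2.86 and 2.08 CPM and a level of 0.997 ± 0.159 CPM per kilobase. Its row is uncertain: 71.9% of its exonic bases lie opposite exons of Gm10501, an antisense gene with 34, 7 and 50 counts, and 9.57% of its 50-base words recur in Hspa1a. The Hspa13 counting intervals spanned 1 in each library.

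The cochaperones and factors ranged from near the top of the list to its end. Hspbp1, an exchange factor that releases nucleotide from Hsp70 (chr7:4660521-4685068), had 15.8, 18.5 and 17.8 CPM and a level of 9.18 ± 0.755 CPM per kilobase, at the 98.0th percentile of measured genes. Library 1 was lowest, at 0.868 times the others (0.80 to 0.943). Hspbap1, named as a partner of Hspb1, had 11.4, 12.7 and 12.7 CPM and a level of 1.31 ± 0.0786 CPM per kilobase. Hspb11, which is a subunit of the intraflagellar transport complex despite its name, had 4.15, 4.84 and 4.08 CPM and a level of 2.10 ± 0.204 CPM per kilobase. It was the one measured Hspb gene.

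Both measured heat shock factor genes were low. Hsf4, known for its role in the lens, had 41, 53 and 41 counts and a level of 0.484 ± 0.0704 CPM per kilobase. Hsf5, known from male germ cells, had 12, 14 and 16 counts. Its level of 0.0635 ± 0.00885 CPM per kilobase was the lowest of the members. The counting intervals of both genes spanned 1 in every library.

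Among the members, 2 low genes had the widest spread between libraries, and both were lowest in library 3. They were the 2 of 23 members at least 1.5-fold below the others there, beside 15.4% of all measured genes. Library 3 was the lowest for 47.6% of all measured genes. The deviations there, −0.75 for Bag2 and −1.39 for Dnajc12, were not unusual among all measured genes. Both lay inside their central range in library 3, −1.59 to 1.21, drawn as a grey band below. Bag2, a cochaperone that inhibits the ubiquitin ligase Stub1 (chr1:33745484-33757795), had 67, 62 and 38 counts, or 1.28, 1.16 and 0.717 CPM. Its level was 0.344 ± 0.0964 CPM per kilobase, and library 3 stood at 0.589 times the others (counting interval 0.399 to 0.852). Dnajc12, a J protein that binds the aromatic amino acid hydroxylases (chr10:63382443-63410576), had 46, 40 and 16 counts, or 0.876, 0.748 and 0.302 CPM. Its level was 0.143 ± 0.0673 CPM per kilobase, and library 3 stood at 0.372 times the others (0.204 to 0.639). In bulk samples, fewer cells of a type and less RNA per cell cannot be told apart. The mitosis genes and 2 of 3 measured endothelial markers were also lowest in library 3, while the leukocyte markers went the other way and were highest there. The part of any of these was not tested.

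A fold of at least 1.5 from the mean of the other 2 libraries was reached by 1 of 23 members above and 0 below in library 1, by 0 and 0 in library 2, and by 0 above and 2 below in library 3. Over all measured genes the shares were 13.2% and 9.19% in library 1, 11.8% and 6.77% in library 2, and 8.09% and 15.4% in library 3. The members were Dnajc12, with deviations of 0.87 in library 1 and −1.39 in library 3, and Bag2, with −0.75 in library 3. Without library 3 no member reached 1.5-fold above in library 1. Without library 1 both Bag2 and Dnajc12 were past it in library 2, set against library 3 alone. For 21 of 23 members the highest CPM was under 1.5 times the lowest, which held for 59.1% of all measured genes. The median SD of log2 CPM was 0.14 over the members and 0.24 over all genes, but the members had more counts, a median of 411 against 154. Among genes with a mean of at least 50 counts, the medians were 0.13 over 20 members and 0.17 over 6710 genes. At that minimum 0 of 20 members and 425 of 6710 genes were at least 1.5-fold above in library 1. In library 3, 1 member and 597 genes were below by as much.

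**Figure D4:**
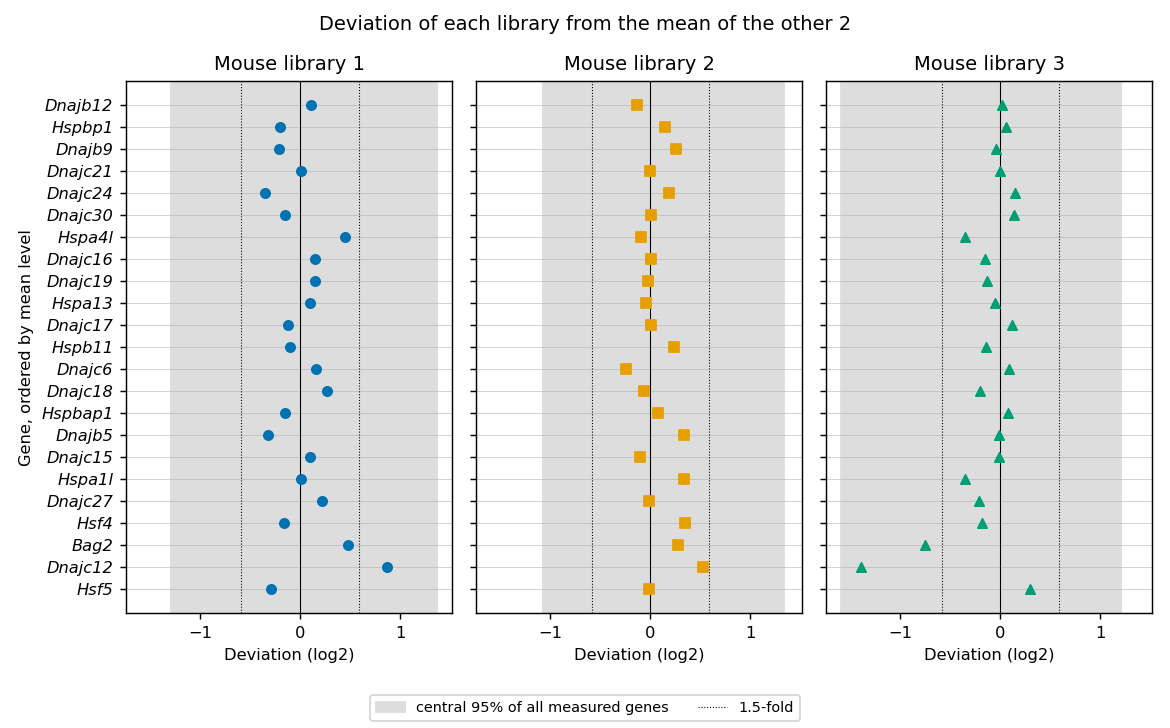
Deviation of each measured chaperone gene (log2 CPM of a library minus the mean of the other 2) in mouse libraries 1, 2 and 3, with genes ordered by mean level. The grey band holds the central 95% of all measured genes and dotted lines mark 1.5-fold. Apart from Bag2 and Dnajc12, all points lie between the dotted lines.

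Median deviations of the members were 0.01, 0.01 and −0.04 in libraries 1, 2 and 3, beside 0.05, 0.07 and −0.10 over all genes. The signs of all 3 member medians turned with trimmed-mean (TMM) factors, to −0.01, −0.04 and 0.02. The order of libraries also moved with the scaling. By CPM, 12 members were highest in library 1 (38.0% of all genes), 8 in library 2 (37.6%) and 3 in library 3 (24.4%). With TMM factors these were 9 (35.9%), 5 (32.8%) and 9 (31.3%), and with DESeq2 size factors 9 (35.8%), 5 (32.9%) and 9 (31.3%). By CPM, 8 members were lowest in library 1 (29.9% of all genes), 3 in library 2 (22.5%) and 12 in library 3 (47.6%). With TMM factors these were 10 (33.1%), 6 (27.0%) and 7 (39.9%), and with DESeq2 size factors 10 (33.1%), 6 (26.8%) and 7 (40.1%).

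Some ratios of a library to the others had a 95% counting interval that left out 1, in the same direction under all 3 scalings tried. Such ratios were found for 13 of the 23 members, beside 63.6% of all measured genes. These shares are not matched for depth: counting intervals narrow with more counts, and the members had a median of 411 against 154. Library 1 was above the others in 6 of the 13 members (Dnajb12, Dnajc12, Dnajc16, Dnajc18, Dnajc19 and Hspa4l) and below in 5 (Dnajb5, Dnajb9, Dnajc24, Hspbap1 and Hspbp1), beside 23.0% and 18.7% of all genes by the same rule. By CPM such intervals lay above 1 in library 1 for 25.8% of all measured genes and below for 18.7%, beside 6 and 5 of the 23 members. In library 2 the CPM intervals lay above 1 for 6 members (26.3% of all genes) and below for 3 (12.5%), and in library 3 for 0 (13.2%) and 7 (34.1%). With TMM factors library 3 had 5 above (18.3%) and 3 below (27.0%), and library 2 had 2 above (21.3%) and 3 below (16.4%). In library 1 either set of factors gave 6 above (23.0%) and 5 below (21.1%). With DESeq2 size factors the member counts were the same, beside 18.2% and 27.2% of all genes in library 3 and 21.5% and 16.2% in library 2. Under all 3 scalings, library 2 was above for Dnajb5 and Dnajb9 (21.3% of all genes) and below for Dnajb12, Dnajc6 and Hspa4l (12.5%). Library 3 was below for Bag2, Dnajc12 and Hspa4l (27.0%) and above for none (13.2%). These intervals take each count as a number of whole reads and cover counting error only, not the spread between animals.

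Other genes of protein folding, from lists drawn up for this description, were mostly as close between libraries. Of 39 cochaperones of Hsp70 and Hsp90, 15 were measured, and 14 of them lay within 1.5-fold in every library. In a given library and direction, 0 or 1 of the 15 lay past 1.5-fold, beside 6.77% to 15.4% of all measured genes. The share of all genes past 1.5-fold in any library was not computed. Chordc1, an Hsp90 cochaperone induced by heat, had 38.1, 44.3 and 41.8 CPM, and Grpel1, the exchange factor of mitochondrial Hsp70, had 23.8, 25.4 and 23.7 CPM. The exception was Sgtb, a cochaperone related to Sgta, with 133, 85 and 162 counts and deviations of −0.80 in library 2 and 0.61 in library 3. Of 19 chaperonin and prefoldin genes 5 were measured, among them Bbs10, a chaperonin-like gene of the cilium, with 30, 61 and 68 counts and deviations of −1.07 in library 1 and 0.66 in library 3. Of 9 small heat shock relatives and disaggregases only Clpb was measured, a mitochondrial disaggregase with 24.5, 26.2 and 27.2 CPM.

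Of 34 genes of endoplasmic reticulum stress, 13 were measured, with 1 below by 1.5-fold in library 1 and 1 above in library 3. Over all measured genes these shares were 9.19% and 8.09%. Trib3, a pseudokinase gene induced by the Atf4 arm, had 4.34, 4.75 and 8.08 CPM, a deviation of 0.83 in library 3. Creb3l1, a membrane-bound transcription factor, had 2.42, 3.37 and 3.93 CPM, a deviation of −0.59 in library 1. The sensor genes lay closer together: Ern1 had 49.4, 40.5 and 38.2 CPM, Atf6 56.4, 51.1 and 50.7 CPM, and Eif2ak3 28.8, 34.1 and 27.8 CPM. The 6 measured partners of other stress responses, among them Hdac6 and Hmox1, had no value past 1.5-fold.

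Immediate early genes, which tissue dissociation can induce, were measured for 5 of 29, and 4 of the 5 were highest in library 1, beside 38.0% of all measured genes. Nr4a2, a nuclear receptor gene, had 5.81, 3.89 and 3.32 CPM. Nr4a3 had 4.04, 1.76 and 2.10 CPM, and Klf2, a transcription factor gene, had 11.9, 9.69 and 6.70 CPM. Dusp2, a phosphatase gene with 12, 40 and 22 counts, was the exception and was lowest in library 1. Library 1 is also where Hspa4l was highest and Dnajb9 and Hspbp1 were lowest, and the only library with counts of Ddx3y. The parts of dissociation and of sex in the chaperone values were not tested.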

How the data were processed

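The authors deposited whole-number counts per annotated gene or assembled locus, 1 table per library, called raw in the labels. Tools listed by the submitters' processing notes are TopHat2, Bowtie2, cutadapt and FastQC, with mm10 as the build; the counting program is not given in the sources used here. Libraries were rRNA-depleted and directional, per the labels' protocols. Fewer rows held a count of 1 than of 3 (641 against 781 in library 1), which was not explained by the sources used here; if the counts were estimates rather than whole reads, counting intervals would not apply as given.

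Identifiers were joined to GENCODE vM21 (GRCm38). CPM used all counts of a library, and length was the union of annotated exons. Intervals are exact 95% Clopper-Pearson bounds converted to ratios. PCR reads are not independent molecules, so the intervals cover counting error only. TMM factors came from edgeR 4.0.16 and size factors from DESeq2 1.42.0 in R 4.3.3; scipy 1.17.1 under Python 3.11.15 gave the intervals, and tables and figures were made with pandas 2.3.3, matplotlib 3.10.9 and numpy 2.4.6. Fold calls were checked on simulated counts.

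All measured members were to be named, and genes of the pathway lists past 1.5-fold at a mean of at least 50 counts; those of mitosis are given as a group. Chordc1, Grpel1, Clpb, Dusp2, Hdac6, Hmox1 and the stress sensors were named after their values were seen. Members and lists were chosen with earlier results of these data known. The codon search was added after the files were seen, in place of promoter motifs and protein features. The naked mole-rat tables were not used here.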

Additional observations from a re-analysis of the deposited data

How the results depend on the processing

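There were 234 alternative values for 47 results. All 115 for single genes moved by less than 1 SD of the gene, but these are means over libraries and the outcome was fixed in advance. Leaving out 1 of 3 libraries cannot move such a mean by 1 SD, and the scaling factors nearly cancel in it. Of the other 119 values 84 kept their sign and stayed within 1.5 times (counts of members) or within the spread over libraries (medians), 28 moved further and 7 turned sign. TMM and DESeq2 factors gave nearly the same values. With TMM the median deviations were −0.0133, −0.0362 and 0.0221, and with DESeq2 −0.0138, −0.0346 and 0.021, in libraries 1, 2 and 3; members highest became 5 in library 2 and 9 in library 3, members lowest 6 and 7, and members with a counting interval above 1 became 2 in library 2 and 5 in library 3, and below 1 in library 3 became 3. The counting intervals under other factors, and the medians without Hspa4l, were added after seeing the data. With a minimum of 50 counts the median deviation of library 1 was 0.0547, beside 0.0388 over all 6710 genes. The members past 1.5-fold were 0 above in library 1 and 1 below in library 3, beside 425 and 597 of the 6710 genes. The median level was 2.53 CPM per kilobase for the members and 2.53 for all these genes. With no filter 1 member, Dnajb8, was below in library 1. At 2-fold, 0 were above in library 1 and 1 below in library 3. Shares over all genes were not computed at 2-fold, without a filter or with a library left out. With the longest transcript as length the median level was 2.90. Leaving out a library gave median deviations of 0.0105 to 0.0472 in library 1, −0.0105 to 0.0688 in library 2, and −0.0688 to −0.0472 in library 3, 0 to 2 members above 1.5-fold in libraries 1 and 2, and a median SD of 0.0768 to 0.133. No paired analysis was possible because the mouse libraries form 1 group and the genes could not be matched to naked mole-rat rows. Promoter motifs and protein sequences were not analysed here. Depth limits Hsf5, Dnajc12, Hsf4 and Bag2, at mean counts of 14.0, 34.0, 45.0 and 55.7.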
